A study of Mus musculus with 33 samples.

Results

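Ribose methylation of ribosomal RNA was compared between adult kidney and kidney of embryos at embryonic day E16.5 in the mouse. The comparison used 6 of the 33 libraries of the series, 3 from adult kidney and 3 from E16.5 kidney, which were taken by their tissue and stage labels. The whole series covers 11 groups of 3 biological replicates: adult and E16.5 kidney, brain, heart, liver and lung, and E9.5 whole heads, recorded under brain. All 11 groups are untreated whole-tissue RNA. Strain, sex, genotype and the age of the adults are not given in the labels used here. The files hold rRNA alone, so the tissue of a library could not be checked against marker genes.

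Methyl groups on the 2′ oxygen of the ribose are added to rRNA in the nucleolus by the enzyme fibrillarin. A box C/D small nucleolar RNA (snoRNA) base-pairs with the rRNA around each site and so selects the nucleotide. Most sites of vertebrate rRNA are methylated in nearly all ribosomes, and others only in part of them. RiboMeth-seq reads these marks because alkali cuts poorly next to a methylated ribose, so that few read ends fall at the site. The score of a site is 1 minus its read ends over a weighted mean of its 6 neighbours on each side; it runs from 0, with no protection from cutting, to 1, with full protection. In RNA of a whole tissue, a partial score cannot tell a share of methylated ribosomes in every cell from a mixture of cell types.

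Of the 108 methylated sites listed by the authors, 107 were tested in kidney, and 12 of them (11.2%) differed between the stages by limma's test at an adjusted p under 0.05. Adult kidney was higher at 9 sites (8.41%) and lower at 3 (2.8%). These tests share 1 estimate of the spread over all 33 libraries; fitted without the other groups, the 6 kidney libraries gave 0 calls in limma and 19 sites at an unadjusted p under 0.05. The 12 sites are shown with 10 nucleotides of mouse rRNA on each side, read 5′ to 3′ from the deposited tables, because all results on single sites below turn on them. The capital marks the methylated nucleotide. SSU stands for 18S rRNA and LSU for 28S rRNA, and sites carry the authors' human position number. In mouse rRNA the sites lie at 18S positions 121, 356, 430, 578, 869, 1449 and 1806, at 28S positions 2123, 2619, 4224 and 4276, and at 5.8S position 14, in the order printed.
SSU-Um121: augguuccuuUggucgcucgc
SSU-Um354: uucgaacgucUgcccuaucaa
SSU-Um428: aggguucgauUccggagaggg
SSU-Am576: uccacuuuaaAuccuuuaacg
SSU-Gm867: uaggaauaauGgaauaggacc
SSU-Gm1447: caacuucuuaGagggacaagu
SSU-Um1804: cggucgaacuUgacuaucuag
LSU-Cm2352: gugguaguagCaaauauucaa
LSU-Cm2848: gucggcaagcCggauccguaa
LSU-Am4541: ccuacugaugAuguguuguug
LSU-Gm4593: cgcagguucaGacauuuggug
5.8S-Um14: cucuuagcggUggaucacucg

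The 9 sites higher in adult kidney hold 5 uridines, 2 guanosines, 1 adenosine and 1 cytidine at the methylated position, and the 3 lower ones an adenosine, a cytidine and a guanosine. All 107 tested sites hold 20 uridines, 32 guanosines, 33 adenosines and 22 cytidines. The median G and C content of the 21-base windows was 47.6% at the 9 higher sites, 52.4% at the 3 lower sites and 52.4% over all tested sites.

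The libraries differed in depth by stage. Adult kidney libraries held 10811179, 9003215 and 14083771 summed read ends, and E16.5 kidney libraries 4012297, 1492884 and 5609510. The median count flanking the tested sites was 1706, 1578 and 2305 in adult kidney, against 676, 233 and 711 in E16.5 kidney. The median score of a library was 0.951, 0.954 and 0.950 in adult kidney and 0.894, 0.926 and 0.930 in E16.5 kidney, so that all 3 adult medians lay above all 3 E16.5 medians. The mean shift of the medians was 0.0349. The first E16.5 library lay more than 0.2 below both other E16.5 libraries at 9 sites, or at 1 site after the authors' correction for barcode effects. From the marker sites that the authors corrected, the adult kidney libraries fell in another inferred library set than the E16.5 ones, so for kidney the effects of stage and set cannot be told apart.

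Most sites scored higher in adult kidney. The mean score was 0.9 or more at 84 of the tested sites in adult kidney and at 58 in E16.5 kidney, and under 0.75 at 8 and 15 sites. The adult mean was higher at 77 sites and lower at 30. The median difference over all tested sites was 0.0220, and single differences ran from -0.320 to 0.358. The 3 adult libraries lay above all 3 E16.5 libraries at 26 sites (24.3%) and below them at 6 sites (5.61%). The 12 called sites were among these 32 sites (29.9%). Replicates also spread less in the adult: the median standard deviation of a site was 0.0164 in adult kidney and 0.0431 in E16.5 kidney, and it was larger at E16.5 at 75 sites. When all library medians were brought to the same score, the called sites split into 4 higher and 9 lower in place of 9 and 3, so the balance of directions is relative to the shift of the medians.

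**Figure D1:**
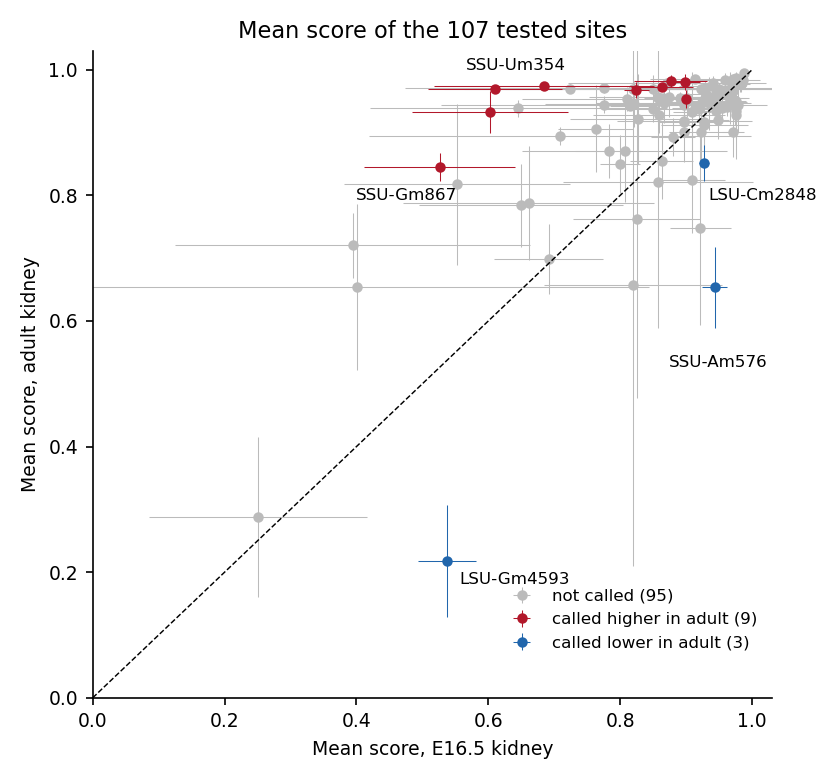
Mean RiboMeth-seq score of each of the 107 tested sites in adult kidney (vertical axis) against E16.5 kidney (horizontal axis), both from 0 to 1; bars give the standard deviation over 3 libraries and the dashed line marks equal scores. Red points are the 9 sites called higher in adult kidney, blue points the 3 called lower and grey points the 95 not called; 77 sites had the higher mean in adult kidney.

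The 3 sites lower in adult kidney differed widely in their embryonic level. LSU-Gm4593, which the snoRNA SNORD78 guides in human rRNA, scored 0.235, 0.120 and 0.296 in adult kidney, against 0.489, 0.576 and 0.547 in E16.5 kidney. All adult values were under the lowest E16.5 value, and the mean difference was -0.320 ± 0.0456 (SE, n = 3 each; limma adjusted p = 2.54e-05). The p-value may be too small, since the spread was pooled with adult brain and adult liver, where all libraries lay at the floor of 0. By this score the site averaged 0.537 at E16.5 and 0.217 in the adult, where its read ends (1295, 2023 and 1628) came near the flanking mean (1694, 2300 and 2312).

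The difference at LSU-Gm4593 rests on the flank it is measured against. LSU-Gm4588 and LSU-Um4590, both methylated, lie 5 and 3 nucleotides upstream, within the window of the score. Relative to the flanking mean, the nucleotide just upstream of LSU-Gm4593 had 2.10 ± 0.316 times as many read ends in adult kidney and 0.890 ± 0.203 times in E16.5 kidney (SD, n = 3). The next one upstream had 1.72 ± 0.290 in adult kidney and 0.996 ± 0.0965 in E16.5 kidney. Measured against only the 2 nearest neighbours on each side, LSU-Gm4593 scored 0.467 in adult kidney and 0.516 in E16.5 kidney, a difference of -0.0493 that was not called (limma adjusted p = 0.692). With both listed neighbours taken out of the 6-nucleotide flanks, an alternative chosen after the data were seen, the difference was -0.257 (limma adjusted p = 0.000676). With 2 neighbours the difference was called lower in the other tissues, at -0.353 in brain, -0.486 in heart, -0.445 in liver and -0.219 in lung.

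SSU-Am576, a site of SNORD93 in human rRNA, was almost fully methylated in the embryo and partly in the adult. It scored 0.591, 0.719 and 0.650 in adult kidney, against 0.943, 0.923 and 0.962 in E16.5 kidney. The groups lay far apart, and the difference was -0.290 ± 0.0503 (SE; limma adjusted p = 0.000213). Both kinds of read end gave it alike: the 5′ ends alone differed by -0.30 and the 3′ ends alone by -0.284, each of them called. Adult kidney had the lowest mean of the 11 groups at this site, 0.653 ± 0.0640 (SD, n = 3), next to 0.686 ± 0.0945 in adult lung, which lies within that spread.

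LSU-Cm2848, a site of SNORD50 in human rRNA, showed the smallest of the 3 falls and, among these 3 sites, the tightest replicates. Adult kidney scored 0.866, 0.818 and 0.870, and E16.5 kidney 0.921, 0.925 and 0.936. No adult library reached the lowest E16.5 value, and the difference was -0.0757 ± 0.0138 (SE; limma adjusted p = 0.000241). The p-value may be too small, since the spread was pooled with groups that all spread less here than adult kidney. In counts, 376, 430 and 326 read ends fell at the site in adult kidney, with flanking means of 2814, 2360 and 2511, and 89, 45 and 97 in E16.5 kidney, with flanking means of 1122, 601.1 and 1509. The share of the flank read at the site was thus 0.149 ± 0.0292 in adult kidney and 0.0728 ± 0.00771 in E16.5 kidney (SD, n = 3). No other listed site lies within 6 nucleotides of it, and 2 neighbours on each side gave a difference of -0.0738.

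**Figure D2:**
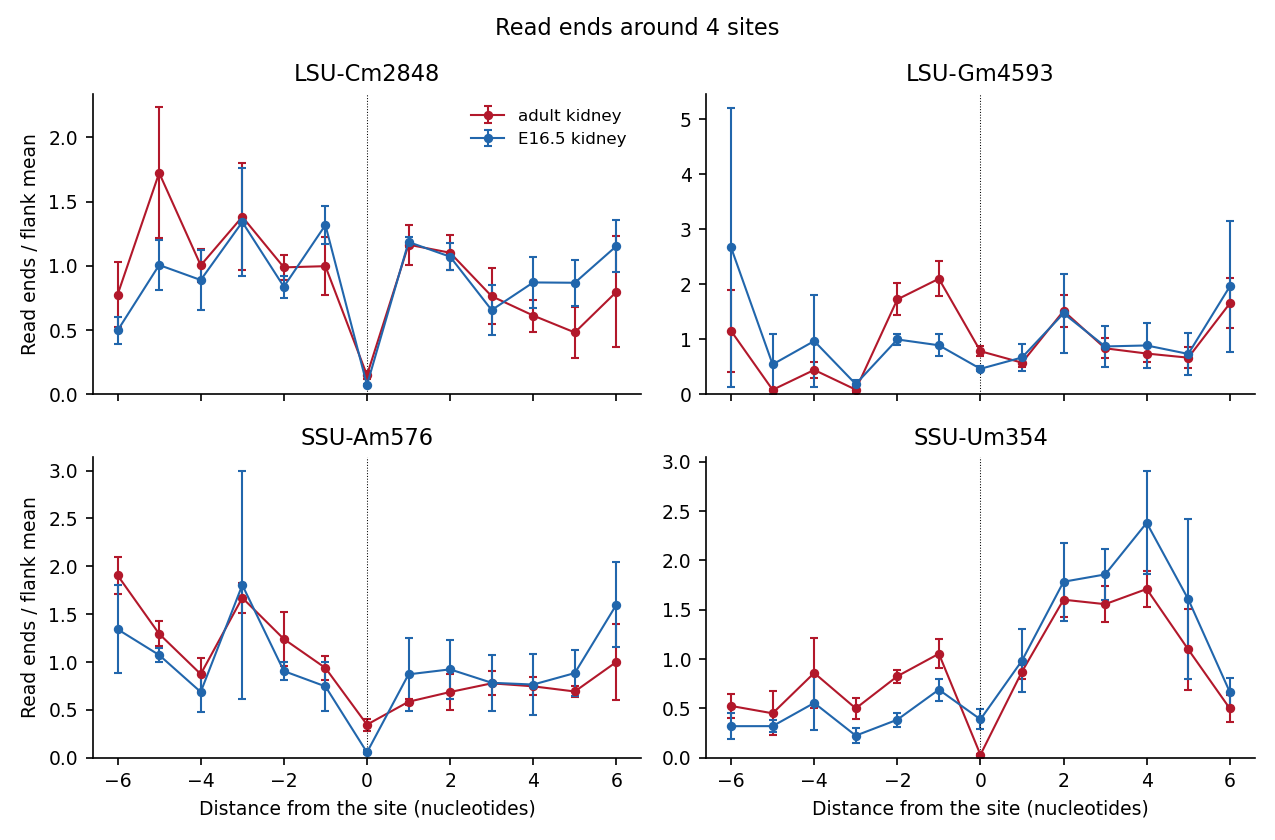
Read ends at each nucleotide from 6 upstream to 6 downstream of 4 sites, divided by the flanking mean of the same library, in adult kidney (red) and E16.5 kidney (blue); points are means of 3 libraries and bars standard deviations. A dip at distance 0 is the protection by the methyl group: at LSU-Cm2848 it reached 0.149 in adult kidney and 0.0728 in E16.5 kidney. At LSU-Gm4593 in adult kidney the site, at 0.783, was not below its downstream neighbour, at 0.574. Its 2 upstream neighbours also differed between the stages, at 2.10 and 1.72 in adult kidney.

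Among 18S sites, 6 were higher in adult kidney, led by sites that were only partly methylated in the embryo. SSU-Um354, guided by SNORD90 in human, scored 0.973, 0.968 and 0.966 in adult kidney, against 0.722, 0.523 and 0.586 in E16.5 kidney. The adult libraries were nearly identical and near full methylation, while the E16.5 libraries were lower and more scattered. The difference, 0.358 ± 0.0627 (SE; limma adjusted p = 0.000213), was the largest rise of the 107 tested sites. At the site, 78, 69 and 98 read ends were counted in adult kidney and 362, 100 and 608 in E16.5 kidney, although adult kidney had the larger flanks. The 3′ ends gave a wider gap, with a score of 0.973 in adult kidney and 0.170 in E16.5 kidney, than the 5′ ends, with 0.967 and 0.688. Adult kidney had the highest mean score of the 11 groups at SSU-Um354.

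SSU-Gm867, a site of SNORD98 in human, scored 0.868, 0.826 and 0.840 in adult kidney, against 0.651, 0.427 and 0.50 in E16.5 kidney. It stayed short of full methylation in the adult and differed by 0.319 ± 0.0766 (SE; limma adjusted p = 0.0044). SSU-Gm1447 scored 0.953, 0.950 and 0.894 in adult kidney, against 0.738, 0.545 and 0.523 in E16.5 kidney. Its difference was 0.330 ± 0.0947 (limma adjusted p = 0.0218), and from 3′ ends alone it was 0.260 and not called. That call was lost without the first adult library (0.319), the second adult library (0.321), the second E16.5 library (0.301) or the third E16.5 library (0.290), although the differences stayed close to the full value. SSU-Um1442, which lies 5 nucleotides from SSU-Gm1447 and is guided by SNORD61 in human, scored 0.969, 0.963 and 0.977 in adult kidney, against 0.504, 0.833 and 0.833 in E16.5 kidney. Its groups did not overlap either, but the difference of 0.246 ± 0.0867 did not pass the test (limma adjusted p = 0.0727). The first E16.5 library scored 0 from 3′ ends at SSU-Um1442. From 5′ ends alone the difference was 0.140 and was called (limma adjusted p = 0.00424).

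The other 3 called 18S sites were uridines that were mostly methylated in the embryo as well. SSU-Um1804, guided by SNORD20 in human, scored 0.990, 0.983 and 0.972 in adult kidney, against 0.908, 0.812 and 0.909 in E16.5 kidney. It rose by 0.105 ± 0.0242 (SE; limma adjusted p = 0.00324). That p-value may be too small, since E16.5 kidney had the largest standard deviation of the 11 groups here, 0.0558, next to 0.0506 in E16.5 liver. SSU-Um121, guided by SNORD4 in human, scored 0.945, 0.970 and 0.945 in adult kidney, against 0.90, 0.905 and 0.895 in E16.5 kidney, and its rise of 0.0533 ± 0.0155 (limma adjusted p = 0.0225) was the smallest called. SSU-Um428, guided by SNORD68 in human, scored 0.974, 0.966 and 0.976 in adult kidney, against 0.813, 0.872 and 0.906 in E16.5 kidney, with a difference of 0.108 ± 0.0341 (limma adjusted p = 0.0384). The adult libraries of these sites lay within 0.03 of each other, and none overlapped with E16.5. The SSU-Um428 call was lost without any 1 adult library or the first or second E16.5 library, at differences from 0.0832 to 0.112. The SSU-Um121 call was lost without the second adult (0.0449) or the first E16.5 library (0.0530), and after thinning (0.0908; limma adjusted p = 0.0778). From 3′ ends alone the SSU-Um121 difference was 0.0110 and not called (limma adjusted p = 0.793), against 0.102 from 5′ ends. With library medians set equal, none of the 3 was called.

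In 28S rRNA, 2 sites were higher in adult kidney. LSU-Am4541 scored 0.967, 0.955 and 0.981 in adult kidney, against 0.809, 0.845 and 0.819 in E16.5 kidney. Both groups were tight and well apart, and the difference was 0.143 ± 0.026 (SE; limma adjusted p = 0.000241). It was also deeply read, with flanking means of at least 6611 read ends in adult kidney and 853 in E16.5 kidney. LSU-Cm2352, which has a listed neighbour 1 nucleotide away, scored 0.993, 0.968 and 0.981 in adult kidney, against 0.881, 0.923 and 0.891 in E16.5 kidney. It rose by 0.0821 ± 0.0189 (limma adjusted p = 0.00324), and was not called at equal library medians or after thinning.

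The 5.8S site 5.8S-Um14, guided by SNORD71 in human, scored 0.969, 0.976 and 0.977 in adult kidney, against 0.637, 0.546 and 0.869 in E16.5 kidney. The embryonic libraries ranged widely but stayed under all adult ones, with a difference of 0.290 ± 0.0935 (SE; limma adjusted p = 0.0422). The value comes from 5′ read ends, since the 3′ score was 1 in all 6 libraries; the site lies 14 nucleotides from the start of its RNA. The call was lost without any 1 adult library or the first or second E16.5 library (0.221 to 0.293), and after thinning to the depth of the shallowest library (0.252; limma adjusted p = 0.174). 5.8S-Gm75, the other 5.8S site, was not called.

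**Figure D3:**
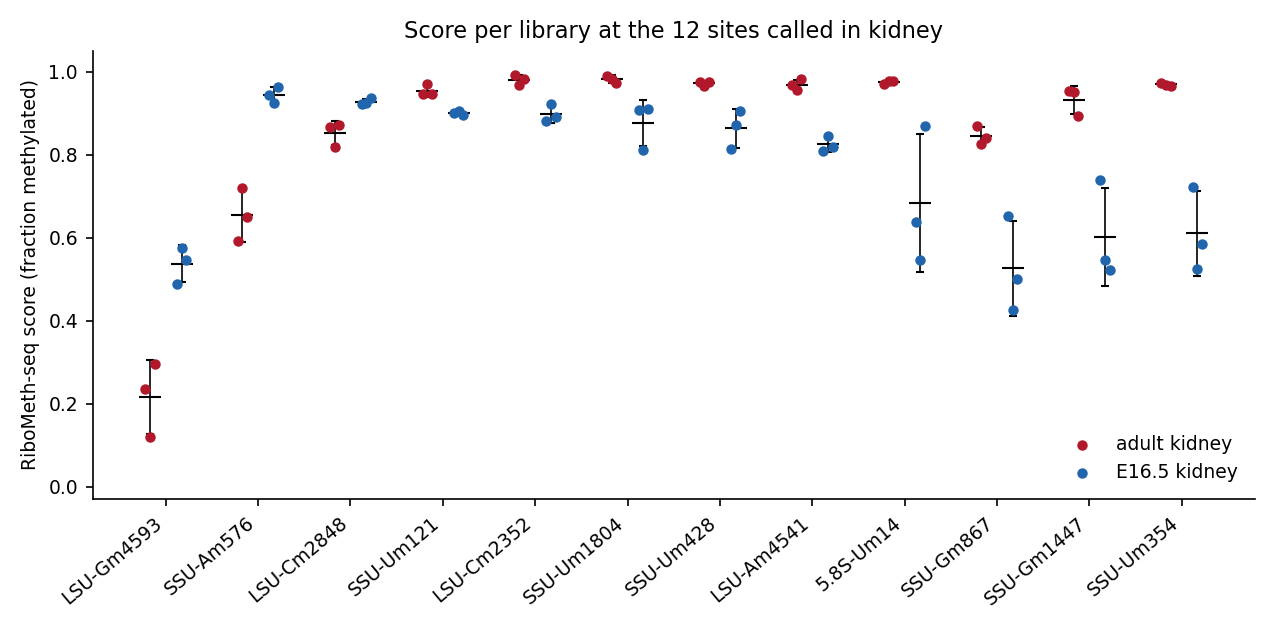
RiboMeth-seq score (0 to 1) in each of the 3 adult kidney (red) and 3 E16.5 kidney (blue) libraries at the 12 called sites, ordered by the difference; black bars give the mean and standard deviation. The 3 sites at the left are lower in adult kidney and the 9 at the right higher, and at no site do the groups overlap.

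The 2 kinds of read end are counted separately and can be set against each other. Of the 12 calls, all had the same sign from 5′ ends alone and 11 were called, the exception being SSU-Um428 (0.0574; limma adjusted p = 0.128). From 3′ ends alone, 11 had the same sign and 5 were called: SSU-Um354, SSU-Um428, SSU-Am576, SSU-Gm867 and LSU-Gm4593. LSU-Cm2848 differed by -0.0714 from 5′ ends (limma adjusted p = 0.00188) and by -0.105 from 3′ ends, where replicates scattered more and the site was not called (limma adjusted p = 0.38). The barcode-corrected score called all 12 and also SSU-Um1442 (0.246; limma adjusted p = 0.0496), LSU-Gm4588 and SSU-Gm683. At SSU-Gm683 the authors' own corrected mean for adult kidney, 0.913, could not be rebuilt, so that call rests on the uncorrected adult score.

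A further 20 sites separated the stages without overlap but did not pass the test, 17 of them with the adult libraries above. The 10 with the largest differences were all higher in the adult mean. LSU-Gm4588 scored 0.930, 0.931 and 0.953 in adult kidney, against 0.847, 0.686 and 0.402 in E16.5 kidney (difference 0.293 ± 0.124 SE; limma adjusted p = 0.134). The embryonic spread, with a standard deviation of 0.225 against 0.0131 in adult kidney, was large here. SSU-Am590, guided by SNORD62 in human, scored 0.955, 0.957 and 0.954 in adult kidney, against 0.833, 0.873 and 0.890 in E16.5 kidney (difference 0.0900; limma adjusted p = 0.0833). LSU-Gm2411 averaged 0.955 in adult kidney and 0.857 in E16.5 kidney (limma adjusted p = 0.0833), and SSU-Cm174 averaged 0.942 in adult kidney and 0.815 in E16.5 kidney (limma adjusted p = 0.329). The remaining 5, SSU-Am1678, LSU-Am1511, LSU-Cm3820, LSU-Gm3923 and LSU-Um4276, differed by 0.0819 to 0.143, with adjusted p from 0.111 to 0.625 in limma. Single E16.5 libraries carry much of 3 of these: without the third, the difference was 0.0395 at LSU-Am1511 and 0.0510 at LSU-Um4276, and without the first it was 0.0467 at SSU-Am1678. LSU-Cm3820 turned to -0.0231 from 5′ ends alone.

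Sites with a mean under 0.75 in either kidney group include several where single libraries decide the value. SSU-Gm436, guided by SNORD100 in human, scored 0.142, 0.350 and 0.372 in adult kidney, against 0.430, 0.217 and 0.105 in E16.5 kidney. By this score the groups overlapped fully and differed by 0.0372 (limma adjusted p = 0.829), and no kidney library exceeded 0.430. The value depends on the flank and on the kind of read end. With 2 neighbours on each side, adult kidney scored 0.380, 0.505 and 0.520, and E16.5 kidney 0.269, 0.301 and 0.338. Those groups did not overlap, but the difference of 0.166 was not called (limma adjusted p = 0.153). From 5′ ends alone the difference was 0.116. From 3′ ends alone it was -0.253, with an E16.5 mean of 0.560, and neither was called. By the score as first defined, the same site differed by 0.443 in brain, 0.386 in heart and 0.514 in liver, all called. In lung it differed by 0.226. Set against the mean difference of these 4 tissues, kidney stood at -0.355 ± 0.115 (SE), which did not pass the correction (limma adjusted p = 0.233).

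SSU-Cm1272, guided by SNORD66 in human, scored 0.679, 0.704 and 0.778 in adult kidney, against 0.353, 0.148 and 0.681 in E16.5 kidney. The mean difference was 0.326 ± 0.123 (SE; limma adjusted p = 0.0833), with 1 E16.5 library inside the adult range. SSU-Cm462, guided by SNORD14 in human, scored 0.803, 0.553 and 0.607 in adult kidney, against 0.217, 0.0794 and 0.906 in E16.5 kidney. Its 5′ ends alone scored 0.967 or more in all 6 libraries, while its 3′ ends ran from 0 to 0.901 in E16.5 kidney, so the low values come from 3′ ends.

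LSU-Um3904, guided by SNORD52 in human, scored 0.879, 0.142 and 0.950 in adult kidney, against 0.673, 0.939 and 0.846 in E16.5 kidney. The low value of the second adult library also came from 3′ ends, whose score there was 0, while its 5′ ends scored 0.966. Without that library the difference was 0.0953 in place of -0.162. The authors' own corrected means were 0.935 in adult kidney and 0.907 in E16.5 kidney. SSU-Gm683, guided by SNORD19 in human, averaged 0.747 ± 0.154 in adult kidney and 0.921 ± 0.0460 in E16.5 kidney (SD, n = 3), but 0.923 and 0.914 from 5′ ends alone. LSU-Gm4020 averaged 0.699 in adult kidney and 0.691 in E16.5 kidney, a partly methylated site at both stages. LSU-Am4560, LSU-Am3804, LSU-Am3846 and LSU-Cm1868 had E16.5 means from 0.552 to 0.709 and differed by 0.126 to 0.265, none of them called. LSU-Cm3848, left untested because another library of the series was too shallow there, scored 0.936, 0.905 and 0.948 in adult kidney, against 0.579, 0.846 and 0.848 in E16.5 kidney. The first E16.5 library enlarges its difference of 0.172, which was 0.0822 in the barcode-corrected score, where that library stood at 0.848.

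Counted per rRNA, 6 of 40 tested 18S sites were higher in adult kidney, 1 was lower and 33 were not called, with a median difference of 0.0425. Of the 65 tested 28S sites 2 were higher, 2 lower and 61 not called, with a median of 0.0169. Over all tested sites these were 9, 3 and 95, with a median of 0.0220. At equal library medians the calls split into 3 higher and 1 lower in 18S, 1 and 8 in 28S and none in 5.8S.

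By nucleotide, 5 of the 20 methylated uridines were higher and none lower, among them SSU-Um354 and SSU-Um1804, with a median difference of 0.0503. Of 32 guanosines 2 were higher and 1 lower (median 0.00958), of 22 cytidines 1 and 1 (median 0.0308) and of 33 adenosines 1 and 1 (median 0.0130). At equal library medians these splits became 1 and 0 for uridines, 2 and 2 for guanosines, 0 and 1 for cytidines and 1 and 6 for adenosines. By the mean score over all libraries, 2 of the 11 sites from 0.25 to 0.75 were higher and 1 lower (median 0.135). Of the 29 from 0.75 to 0.9, 3 were higher and 1 lower (median 0.0883), and of the 67 at 0.9 or above, 4 were higher and 1 lower (median 0.0124). Those splits became 2 and 1, 2 and 1, and 0 and 7 at equal medians. Of the 22 sites with a listed neighbour within 2 nucleotides 1 was higher, LSU-Cm2352, and of the other 85, 8 were higher and 3 lower; at equal medians these were 0 and 3, and 4 and 6.

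The 12 kidney calls were then followed in the other tissues, each compared adult against E16.5. In the same direction, 11 were also called in liver, 10 in lung, 6 in heart and 3 in brain. Lung lies in the inferred library sets of kidney at both stages and liver at E16.5 only, while heart has these sets reversed. Stage and set therefore cannot be told apart in these counts. The differences had the same sign in 11 cases in liver, 11 in lung, 10 in heart and 12 in brain. SSU-Um428, for example, rose by 0.117 in liver and 0.0996 in lung and stood at -0.00048 in heart. LSU-Am4541 rose by 0.508 in liver, well over its kidney value. Adult kidney and E16.5 heart share an inferred library set, and so do E16.5 kidney and adult heart, so set differences that simply add cancel in the mean of the kidney and heart differences. That mean called 17 sites (15.9%), 14 higher (13.1%) and 3 lower (2.8%), and 11 of the 12 kidney calls were among them, all except SSU-Um428. The kidney difference is itself part of that mean, so this overlap is partly built in. LSU-Cm2848 was among the 11 although its heart difference had the opposite sign to that of kidney.

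**Figure D4:**
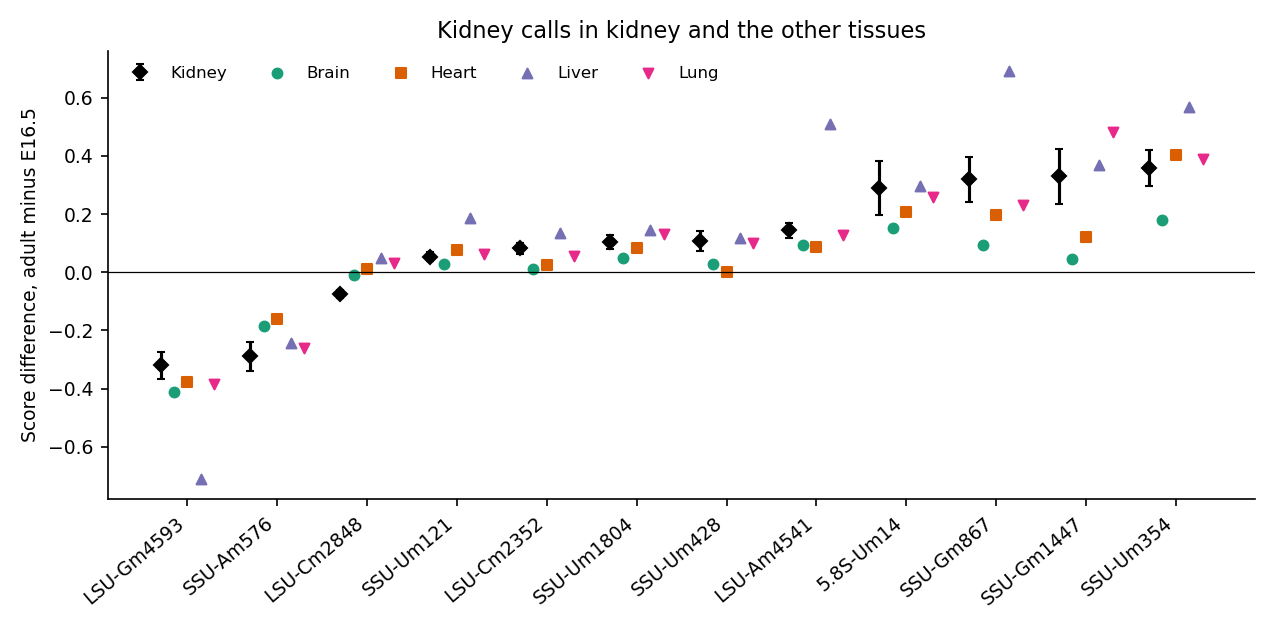
Score difference, adult minus E16.5, at the 12 sites called in kidney, for kidney (black diamonds with standard error) and for brain, heart, liver and lung (coloured symbols, group means of 3 libraries each). At LSU-Cm2848 kidney stood at -0.0757 while heart, liver and lung stood above 0, and at most other sites the tissues lay on the same side of 0.

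LSU-Cm2848 was the one site at which the kidney difference itself differed from that of other tissues. The adult minus E16.5 difference was -0.0112 in brain, 0.0110 in heart, 0.0471 in liver and 0.0309 in lung, and of these liver's rise was called. Against the mean of these 4, the kidney difference was lower by -0.0952 ± 0.0155 (SE; limma adjusted p = 0.000215; 1 of 107 sites called, 0.935%). Against lung alone, whose adult and E16.5 libraries lie in the same inferred sets as those of kidney, it was lower by -0.107 ± 0.0196 (limma adjusted p = 0.00127; again 1 site, 0.935%). Both p-values may be too small, since adult kidney had the largest standard deviation of the 11 groups here, 0.0292, next to 0.0173 in E16.5 liver. At an unadjusted p under 0.05, 9 sites differed in the first of these contrasts and 2 in the second. After SSU-Gm436, LSU-Gm4593 came closest among the sites not called against the 4 tissues, at 0.151 ± 0.051 (limma adjusted p = 0.233); with 2 neighbours on each side it stood at 0.326 (limma adjusted p = 0.00499), and without the second adult kidney library at 0.20 (limma adjusted p = 0.0363).

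Over the 11 groups, adult kidney had the lowest LSU-Cm2848 score, 0.851 ± 0.0292 (SD, n = 3). E16.5 liver came next at 0.907 ± 0.0173, then E9.5 head at 0.926 ± 0.00882 and E16.5 kidney at 0.927 ± 0.00771. E16.5 kidney and E9.5 head did not differ beyond their spread, and adult lung was highest, at 0.967 ± 0.00621. The highest adult kidney library, 0.870, lay below the lowest library of any other group, 0.888 in E16.5 liver.

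**Figure D5:**
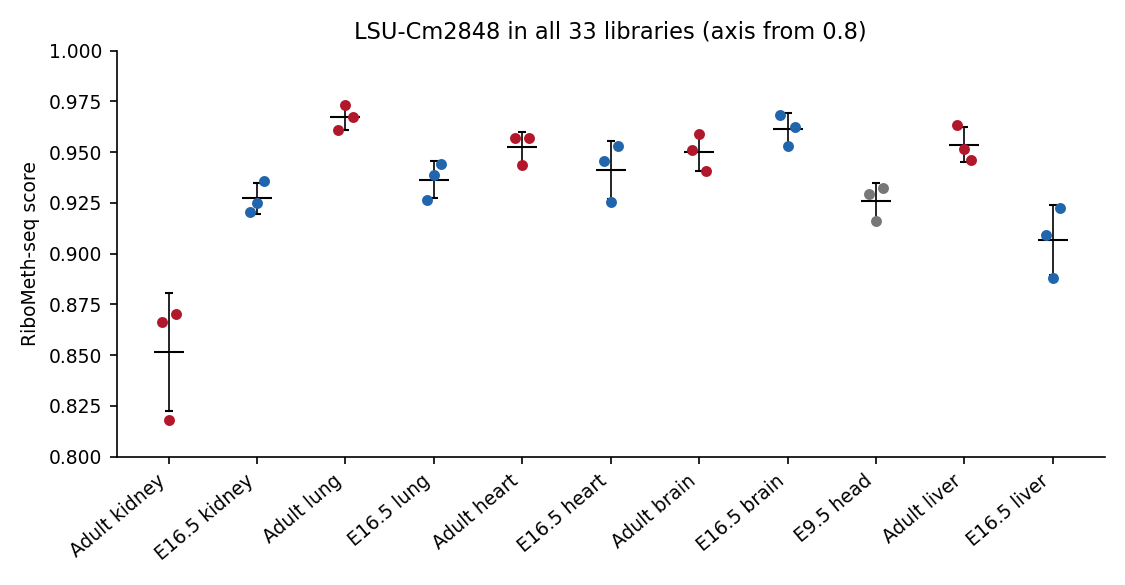
RiboMeth-seq score of LSU-Cm2848 in each of the 33 libraries, by group (adult red, E16.5 blue, E9.5 grey), with mean and standard deviation over 3 libraries in black; the vertical axis starts at 0.8. The 3 adult kidney libraries, from 0.818 to 0.870, lie below all others.

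The LSU-Cm2848 result was lost in a random thinning to a much lower depth. After every library was thinned once at random to the read ends of the shallowest library of the series, 463388, the site kept 17, 11 and 7 read ends in adult kidney and 12, 21 and 10 in E16.5 kidney. The scores were then 0.858, 0.908 and 0.915 in adult kidney and 0.909, 0.887 and 0.921 in E16.5 kidney, which overlap, and neither the kidney difference (-0.0114; limma adjusted p = 0.829) nor the contrasts of this site with other tissues were called. The thinning was a single draw, to a depth below that of every kidney library. How far the difference varies between draws was not tested. At equal library medians the contrast with lung was -0.101 and missed the threshold (limma adjusted p = 0.0551).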

How the data were processed

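RiboMeth-seq libraries were made from whole-cell RNA cut with alkali, per the labels' protocols; cutadapt 2.0 and Bowtie2 2.3.4.1 are named in the submitters' processing notes, and the settings of the aligner are not given in the sources at hand. Per the file headers, the authors deposited counts of 5′ and 3′ read ends and their sum for 6878 rRNA nucleotides in each library, and a fraction methylated (the score). The score was rebuilt from the counts within 5.00e-10. A deposited table of the authors' mean score per group, corrected for barcode effects at some sites per its header, changed 4 adult and 16 E16.5 kidney means, of which 2 could not be rebuilt within 1e-05; uncorrected scores were tested. Column headers of all 11 deposited sheets carry the same sample names, so the group was taken from the sheet name and the replicate from the header ending. Sheet means equalled the authors' means of the same group at 84 to 104 sites and those of any other group at 2 at most.

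Scores of 107 sites with a flanking mean of at least 10 read ends in every library were fitted with limma 3.58.1 in R 4.3.3 (group means of all 33 libraries, variance trend, two-sided, Benjamini-Hochberg over 107 sites). The code was also run on simulated scores, drawn as independent normal values with the same spread in all groups. Real scores are bounded and spread unequally, so that run does not bear on the calls. Other steps used Python 3.11.15. Depth was unequal: the lowest flanking mean of a listed site in kidney was 32.5 read ends, and reads without molecular identifiers are not independent molecules. The design text calls the triplicates biological. Chi-square per degree of freedom between kidney replicates, 92.2 to 336, served only as a check against duplicate libraries; it does not tell biological from technical replicates. Library sets were inferred from which of SSU-Gm683 and SSU-Am1031 the authors corrected. Same-numbered adult and E16.5 kidney libraries did not deviate together (r = -0.195, -0.0109 and -0.00133), so numbers were not used as pairs. Across tissues this was not tested, and the fit treats all libraries as independent. At LSU-Am3804 same-numbered E16.5 libraries moved alike, at 0.386, 0.795 and 0.946 in kidney and 0.491, 0.881 and 0.972 in lung. They also did at SSU-Gm867, at 0.651, 0.427 and 0.50 in kidney and 0.624, 0.456 and 0.583 in lung. So did those of LSU-Gm4588, at 0.847, 0.686 and 0.402 in kidney and 0.780, 0.725 and 0.119 in lung. At SSU-Um354 they did not, at 0.722, 0.523 and 0.586 in kidney and 0.415, 0.476 and 0.629 in lung. Adult libraries moved alike at SSU-Am576, at 0.591, 0.719 and 0.650 in kidney and 0.596, 0.785 and 0.679 in lung. Libraries that move alike are not independent, so the p-values of the fit may be off. Named sites were all called sites, up to 10 uncalled sites without overlap and with the largest differences, sites under 0.75 in either group and the untested site; these rules and the site lists were chosen with earlier results of these data known. Lists by snoRNA host gene were not used because the authors' table names no guides, and guides are given as background.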

Additional observations from a re-analysis of the deposited data

Results flagged for a closer look

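LSU-Cm2848 stood out because its adult minus E16.5 difference in kidney differed from that in other tissues by a direct test. The contrast with the mean difference of brain, heart, liver and lung was -0.0952 ± 0.0155 (SE; limma adjusted p = 0.000215), with all 3 adult kidney libraries below all 3 of E16.5 kidney. The contrast with lung was -0.107 ± 0.0196 (limma adjusted p = 0.00127). Both p-values may be too small, since adult kidney spread the most of the 11 groups at this site. With any 1 kidney library left out, the first contrast ran from -0.105 to -0.0783 and the second from -0.116 to -0.0898, and both were called each time. From 5′ ends alone they were -0.0936 and -0.0951, both called, and from 3′ ends alone -0.124 and -0.250, neither called.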

How the results depend on the processing

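Of the 12 kidney calls, SSU-Um354, SSU-Am576 and SSU-Gm867 were lost in 1 of the 20 settings tried, the fit of the 6 kidney libraries alone, in which limma called 0 sites (19 at an unadjusted p under 0.05). The count was 21 from 5′ ends, 6 from 3′ ends and 19 on the log2 scale of flank over site; it was 13 (4 higher, 9 lower) at equal library medians, 15 (13 and 2) with 2 neighbours, 9 (7 and 2, 8 of them among the 12) after thinning to the shallowest library and 8 to 18 without single libraries, the lowest without the second adult library and the highest without the third of E16.5. The replicate block gave 17 calls (14 higher, 3 lower) and kept 1 call in each contrast with other tissues. The numbers did not pair adult with E16.5 kidney libraries. Pairing across tissues was not tested, although same-numbered kidney and lung libraries moved alike at several sites named above. In the contrast with the other 4 tissues the count was 0 from 3′ ends, 2 with the barcode correction or 2 neighbours and 1 to 2 without single libraries. In the contrast with lung it was 2 from 5′ ends or without a variance trend and 0 from 3′ ends, at equal medians, after thinning or in the 12 kidney and lung libraries alone. No called site reversed. Uncalled sites that did were SSU-Gm436 (-0.253 from 3′ ends; -0.0356 to 0.127 without single libraries), SSU-Cm462 (-0.0171 from 5′ ends), SSU-Gm683 (0.0090 from 5′ ends), LSU-Cm1868 (-0.0158 corrected), LSU-Am3804 (-0.000891 from 5′ ends, -0.00359 corrected), LSU-Cm3820 (-0.0231 from 5′ ends), LSU-Am3846 (-0.00742 thinned), LSU-Um3904 (0.0191 from 3′ ends, 0.115 corrected, with the E16.5 mean not rebuilt, -0.309 to 0.0953 without single libraries) and LSU-Gm4020 (-0.0275 at equal medians, -0.0627 thinned, -0.0241 to 0.0541 without single libraries). In the mean with heart, LSU-Am1511 (-0.0103), LSU-Cm1868 (-0.0292), SSU-Gm683 (0.0413) and LSU-Um3904 (0.00911) reversed. The cause was not tested.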
